A study of Mus musculus with 4 samples.

Results

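Lysosomes are the acidic compartments in which cells break down what they take up and what they discard. A membrane pump, the vacuolar ATPase, drives protons into them, hydrolases cut glycans, lipids and proteins, and the basic helix-loop-helix factors of the MiT/TFE family switch on genes of the pathway. In the liver, Kupffer cells (the resident macrophages) and sinusoidal endothelial cells clear particles and macromolecules from blood into this compartment. Genes of the lysosome were followed here in liver nonparenchymal cells of mice given carbon tetrachloride (CCl4), a hepatotoxin given to model liver fibrosis. The genes were 32 named members of 25149 genes in the tables, listed by their function. They comprise 5 lysosomal membrane proteins, 7 glycosidases, 6 genes of lipid handling and breakdown, a peptidase with progranulin, 1 calcium channel, 3 MiT/TFE transcription factors and 8 proton pump genes.

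The 4 libraries came from wild-type male mice aged 8 to 10 weeks, 1 mouse per library by the labels. The 2 CCl4 mice were injected intraperitoneally with CCl4 mixed 1 to 9 with corn oil, and the 2 corn oil mice with the oil alone, at 10 µl per g body weight 2 times a week for 5 weeks, and all were taken 48 hours after the last dose. Livers were digested with collagenase and pronase, a slow spin took out the hepatocytes, and single cells were captured on the BD Rhapsody cartridge, which tags each captured molecule so that it is counted as 1 UMI. Gates on the UMIs of a few defining genes gave 5 cell groups.

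Cells with 5 or more Clec4f UMIs were called Kupffer cells. They were divided by their summed UMIs of Mmp12, Gpnmb and Adam8, genes of macrophages in scar tissue. "Kupffer low" cells had fewer than 4 of these UMIs and numbered 216, 219, 106 and 107 in the libraries called corn oil 1 and 2 and CCl4 1 and 2, in that order here and below. "Kupffer high" cells had 4 or more and numbered 1, 3, 122 and 118, so this group could not be compared between treatments. The monocyte gate held 43, 23, 911 and 1349 cells, the endothelial gate 5287, 5370, 3085 and 2795, and the stellate gate (the vitamin A storing cells that make scar matrix) 179, 145, 462 and 144. The names were checked on markers that the gates did not use. In the Kupffer low gate all 11 such Kupffer markers were detected in every library and took 3.08% to 4.02% of UMIs, all 8 such endothelial markers took 1.27% to 1.62% in the endothelial gate, and all 8 such stellate markers took 1.92% to 3.10% in the stellate gate. In Kupffer high cells of the CCl4 mice all 11 such Kupffer markers were detected as well. They took 2.43% and 2.46% of UMIs, less than the 4.02% and 3.86% in Kupffer low cells of these mice. The corn oil cells of the monocyte gate went against the name. Ly6c2, a defining gene of classical monocytes, had a UMI in 14.0% and 8.70% of them against 59.9% and 67.5% of the CCl4 cells, and the macrophage gene C1qa in 48.8% and 69.6% against 18.3% and 24.4%. They are therefore called the cells of the monocyte gate below, and their comparison between treatments sets unlike cells side by side.

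Libraries held 45408857 to 55529871 UMIs, and the gated sums ran from 258483 to 30361250 UMIs where a test was made. Kupffer low cells were deeper after CCl4, with a median of 15787 and 14622 UMIs per cell against 8687 and 7327 in corn oil. Their median mitochondrial share was 9.20% and 13.9% in corn oil and 7.38% and 7.08% in CCl4. The analysis date in the file headers differs for the CCl4 1 table from that of the other 3. The labels place all libraries in 1 batch. Pairs of libraries shared 48 to 74 cell labels, at most 1.17% of the smaller library. Levels below are counts per 1000000 UMIs of the gate in that library (CPM). Per the GENCODE annotation of GRCm38, the members named most below lie at chrX:134588149-134601125 (Gla), chr5:129989011-130003049 (Gusb), chr8:85083270-85098282 (Man2b1), chr5:92441314-92506833 (Scarb2), chr4:130913125-130936141 (Laptm5), chr11:101009452-101063719 (Atp6v0a1) and chr4:19876841-19922605 (Atp6v0d2). Lamp1, Scarb2, Hexa, Npc1, Ppt1, Grn, Mitf, Atp6v1h and Atp6v1b2 overlap an annotated gene on the other strand, and the sources used here do not say whether counting used strand. Changes are log2 fold changes from edgeR's quasi-likelihood test on the sums per mouse, with Benjamini-Hochberg adjustment over all genes of the gate, and a gene passed at an adjusted p under 0.05. How many molecules of a gene are caught differs between genes, so levels are compared between cells and mice, not between genes. With so few mice per group, the values of the groups can lie apart by chance. How often they did so over all genes was not counted. For a gene that did not pass, a lack of overlap therefore describes its values and is not evidence of an effect of CCl4.

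Promoter sequence was available for 27 of the 32 members in the RefSeq table (build GRCm38.p6), as windows from 250 bases before to 50 after the annotated start. These were searched on both strands for CACGTG, the core E-box that MiT/TFE factors bind, and for TCACGTGA, which contains it. A longer motif that extends TCACGTGA at both ends was searched as well. CACGTG lay in the window of 7 members (25.9%: Lamp1, Gla, Naglu, Gaa, Mcoln1, Atp6v0d1 and Atp6v1a) against 8.09% of 27025 genes. TCACGTGA lay in 4 members (14.8%: Gla, Mcoln1, Atp6v0d1 and Atp6v1a) against 1.12% of genes. The longer motif lay in 0 of the 27 members against 0.370% of genes. A match is a description of letters and not a binding site. The stretches below are shown because they hold every TCACGTGA among the members, with Lamp1 added for its cluster of 4 core E-boxes. They are written 5′ to 3′ on the strand of the gene, with the motif in capitals. Their positions are chrX:134601181-134601245 (minus strand), chr8:3500439-3500488 (plus), chr16:44139360-44139409 (minus), chr8:105566053-105566082 (minus) and chr8:13159091-13159158 (plus).
Gla: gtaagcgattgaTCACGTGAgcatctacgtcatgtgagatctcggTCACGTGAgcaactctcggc
Mcoln1: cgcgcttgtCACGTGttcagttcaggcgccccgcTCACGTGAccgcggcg
Atp6v1a: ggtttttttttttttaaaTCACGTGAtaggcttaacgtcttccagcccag
Atp6v0d1: aggccctactgcggTCACGTGAgacgcggt
Lamp1: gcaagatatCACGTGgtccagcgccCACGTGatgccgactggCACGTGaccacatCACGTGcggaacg
Gla was the only member with 2 copies of TCACGTGA in its window. In Kupffer low cells the log2 changes after CCl4 given below were 1.73 for Gla, 0.11 for Mcoln1, 0.24 for Atp6v1a, 0.58 for Atp6v0d1 and -0.16 for Lamp1, of which that of Gla alone passed the test. Gusb, Atp6v0a1, Man2b1, Laptm5 and Scarb2, called in at least 1 gate, had no match in their windows. Gaa, which held CACGTG, fell in the monocyte gate, and neither Gaa nor Naglu passed in Kupffer low cells. No relation of motif and change was tested.

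The first comparison asks where in the healthy fraction the lysosomal genes were expressed. Together the 32 members took 1.71% and 1.62% of all UMIs of Kupffer low cells in the corn oil mice, against 0.703% and 0.722% in endothelial and 0.621% and 0.582% in stellate cells. In the CCl4 mice the shares were 1.60% and 1.78% in Kupffer low, 1.85% and 1.96% in Kupffer high and 1.85% and 1.84% in the monocyte gate, and 0.640% and 0.611% in endothelial and 0.583% and 0.618% in stellate cells. Of the 4 gates that could be compared between treatments, the endothelial shares alone did not overlap, with both CCl4 mice below both corn oil mice; a share over chosen members was not tested. Of that endothelial gap most lay in the membrane proteins, whose share was 0.266% and 0.277% in corn oil and 0.197% and 0.193% in CCl4.

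**Figure D1:**
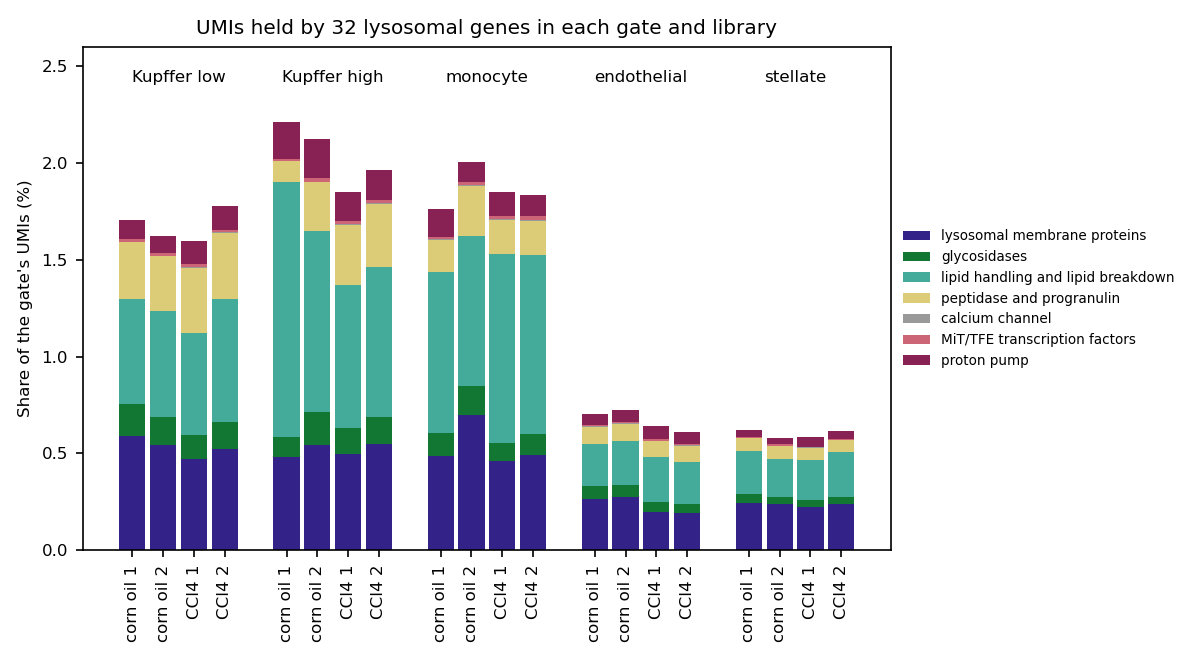
Share of each gate's UMIs (%, y axis) held by the 32 genes, 1 bar per library, stacked by the role of the genes. Bars of the Kupffer and monocyte gates reach 1.60% to 2.21% and those of the endothelial and stellate gates 0.582% to 0.722%; the corn oil bars of Kupffer high hold 1 and 3 cells.

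Most members were higher in Kupffer low than in endothelial cells of the corn oil mice. In 1 fit of all gates with mouse as a block, 21 of 32 were higher and 3 lower, where 51.2% of the 11649 genes tested passed in either direction and 21.8% were higher. Among lysosomal membrane proteins, Cd68, a heavily glycosylated protein of macrophage lysosomes, had the largest difference, at 1567 and 1259 CPM in Kupffer low and 21.2 and 50.3 in endothelial cells (log2 5.34, SE 0.419, adjusted p = 1.03e-07). Laptm5, a membrane protein of blood cell lysosomes, followed at 2013 and 1822 against 41.6 and 64.0 CPM (log2 5.21, adjusted p = 5.64e-08). For both genes the ranges lay far apart.

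Scarb2, an integral protein of the lysosomal membrane, went the other way, with 441 and 405 CPM in Kupffer low, 708 and 725 in endothelial and 967 and 1013 in stellate cells. It was lower in Kupffer low than in endothelial cells (log2 -0.76, SE 0.143, adjusted p = 0.000492) and than in stellate cells (log2 -1.21, adjusted p = 1.33e-05). Lamp2, a main protein of the lysosomal membrane, was likewise lower in Kupffer low than in endothelial cells, at 692 and 744 against 1207 and 1237 CPM (log2 -0.77, adjusted p = 0.000502). Its close relative Lamp1 was higher there, at 1193 and 1204 against 680.4 and 692 CPM (log2 0.81, adjusted p = 6.87e-05), so the pair of major membrane proteins differed in direction between these cells.

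All 6 lipid genes were higher in Kupffer low than in endothelial cells. The largest difference was in Npc2, which hands cholesterol to the exporter Npc1, with 789 and 843 against 186 and 207 CPM (log2 2.06, adjusted p = 1.07e-08), and the smallest in Ppt1, a thioesterase that strips palmitate from proteins (log2 0.79, adjusted p = 0.000162). Of the glycosidases 4 of 7 were higher and none lower, led by Hexa, a subunit of the enzyme that trims gangliosides, at 482 and 416 against 147 and 135 CPM (log2 1.68, adjusted p = 2.15e-08). Grn (progranulin, a secreted and lysosomal protein) stood at 2437 and 2455 against 407 and 449.6 CPM (log2 2.52, adjusted p = 1.22e-08), whereas the peptidase Tpp1 stood at 473 and 378 against 467 and 467 CPM and did not pass (log2 -0.13, adjusted p = 0.428).

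Each of the 3 MiT/TFE factors was higher in Kupffer low than in endothelial cells, most of all Mitf, at 52.2 and 62.3 against 5.27 and 6.65 CPM (log2 3.27, SE 0.202, adjusted p = 8.88e-09). Tfeb stood at 16.8 and 26.4 against 9.58 and 12.8 CPM (log2 0.93, adjusted p = 0.00278), and Tfe3 at 90.7 and 79.2 against 54.6 and 53.0 CPM (log2 0.66, adjusted p = 0.00271). Mcoln1, the calcium channel of the lysosomal membrane, stood at 28.6 and 32.6 against 31.5 and 35.0 CPM and did not pass (log2 -0.12, adjusted p = 0.579).

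The proton pump was split between cells by subunit. Atp6v1b2, a subunit of the cytosolic, ATP-splitting part, was higher in Kupffer low than in endothelial cells, at 387 and 314 against 91.7 and 90.6 CPM (log2 1.94, SE 0.143, adjusted p = 5.19e-08). Atp6v0a1, a large subunit of the membrane part, was lower, at 40.8 and 37.6 against 106 and 122 CPM (log2 -1.54, SE 0.183, adjusted p = 7.18e-06), and lowest in stellate cells, at 26.3 and 19.1. Atp6v1a, the catalytic subunit, and the accessory protein Atp6ap1 were higher (log2 1.00, adjusted p = 4.91e-05 and log2 0.44, adjusted p = 0.00419), and Atp6v0d1 and Atp6v1h did not pass. Atp6v0c, of the membrane ring, gave only 23 UMIs in Kupffer low and 71 in endothelial cells of the corn oil mice (ratio of CPM 4.62, exact 95% interval 2.75 to 7.48, counting error only), and 0 in stellate cells, which places Kupffer low at least 2.99-fold higher against a floor of 3 UMIs over the group. The annotation holds the processed copies Atp6v0c-ps1 and Atp6v0c-ps2, so its counts are uncertain.

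Against stellate cells, 23 of 32 members were higher in Kupffer low and 2 lower, where 44.5% of genes passed. The largest differences beside Cd68 (4.81) and Laptm5 (3.94) were in Man2b1, the lysosomal alpha-mannosidase, at 873 and 809 against 98.4 and 58.7 CPM (log2 3.42, adjusted p = 1.74e-07), and Mitf (log2 3.16, adjusted p = 8.78e-06). Among lipid genes Asah1, the acid ceramidase, led with 463 and 444 against 127 and 82.1 CPM (log2 2.13, adjusted p = 8.23e-07). Grn was higher as well (log2 2.44, adjusted p = 5.85e-08), and of the pump subunits with UMIs in every gate and library Atp6v1b2 stood furthest apart (log2 2.52, adjusted p = 6.15e-08). Gaa, which breaks glycogen down in the lysosome, was lower in Kupffer low, at 49.0 and 29.2 against 80.1 and 51.3 CPM (log2 -0.73, adjusted p = 0.0112), but not once any 1 of the 4 libraries was left out. Stellate against endothelial cells gave 4 higher and 12 lower members, where 37.3% of genes passed. Higher in stellate cells were Laptm5 (1.27, at 175 and 71.9 CPM, and 0.10 without corn oil 1), Gaa (0.53), Ppt1 (0.48) and Scarb2 (0.45). None of these 4 passed with 1 library left out, except Laptm5 without corn oil 2. Among the 12 lower ones were Atp6v0a1 (-2.33), Man2b1 (-1.90), Tpp1 (-1.18), Tfe3 (-1.18), Lipa (-0.76), Mcoln1 (-0.74) and Lamp2 (-0.67). With 1 library left out at a time, 9 to 12 members passed in place of 16.

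Macrophage RNA was present at a low level outside the macrophage gates. All 12 Kupffer markers were detected in the endothelial gate. They took 0.0522% to 0.0612% of UMIs in corn oil and 0.0573% to 0.0817% in CCl4. Slc40a1 alone made up a large part of this, at 295 and 287 CPM in corn oil and 209 and 182 in CCl4. In the stellate gate at least 11 of 12 took 0.0619% to 0.0738% in corn oil and 0.0819% to 0.0843% in CCl4. Clec4f, the gate gene of Kupffer cells, reached 0.11% to 0.31% of its Kupffer low level in these gates. Cells with 5 or more Clec4f UMIs were dropped from them, which holds this level down. The 11 Kupffer markers that the gates did not use reached 0% to 9.12%. Laptm5 in endothelial cells was at 2.06% and 3.51% of its Kupffer low level in corn oil and 7.28% and 4.95% in CCl4, and Cd68 at 1.35%, 3.99%, 5.32% and 2.93%. The part of macrophage RNA in these small endothelial values was not tested. Psap and Lamp1 in endothelial cells were at 37.4% to 57.5% of the Kupffer low level. In the stellate gate B cell markers took 0.142% of UMIs in corn oil 1 and 0.00792% in corn oil 2. Erythroid markers took 0.176% and 0.00191% there. The part of such RNA in the stellate value of Laptm5 in corn oil 1 was not tested.

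**Figure D2:**
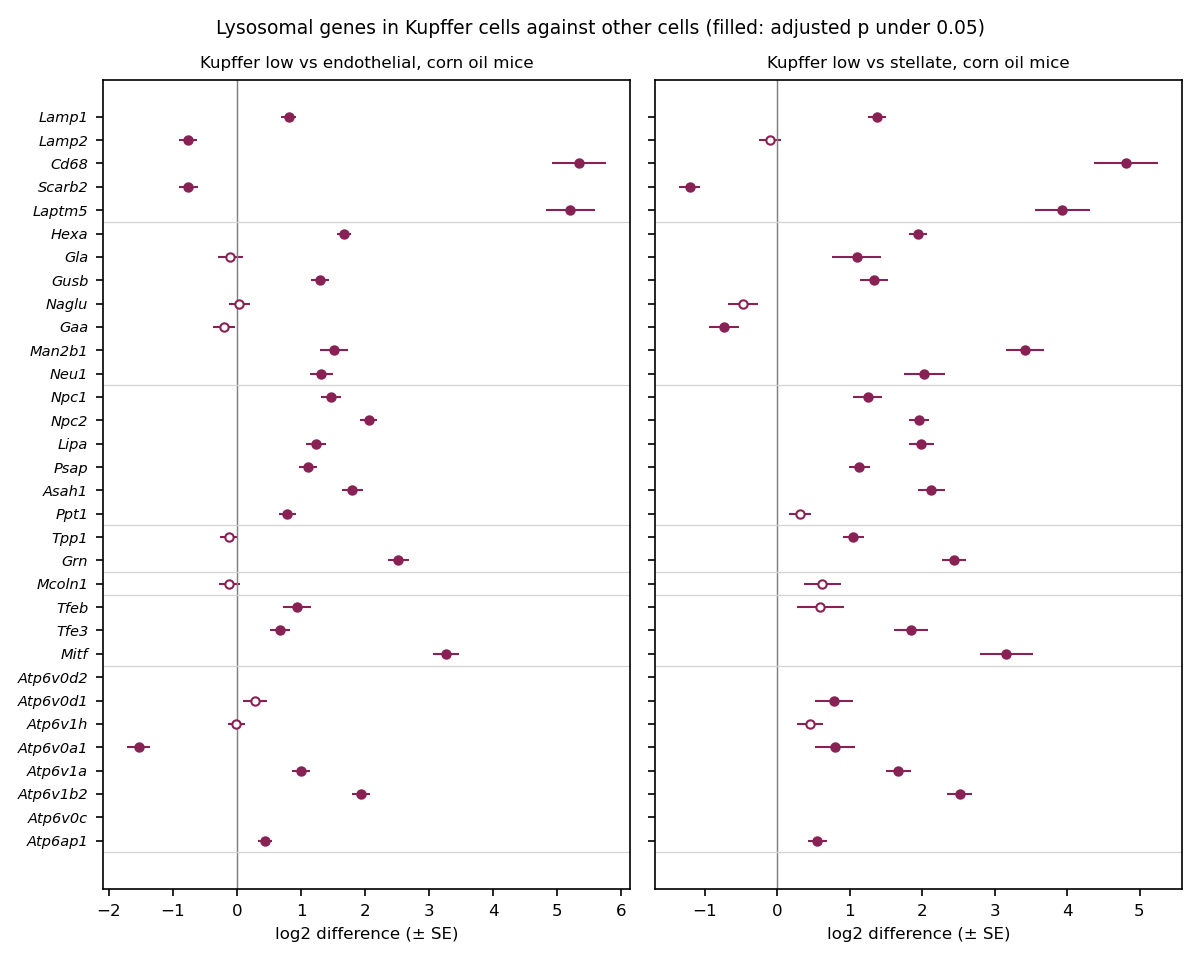
Log2 difference (x axis, ± SE) between Kupffer low and endothelial cells (left) and stellate cells (right) of the corn oil mice for 30 members, in the order of their roles; filled points passed the test. Cd68, Laptm5 and Mitf lie furthest to the right in the left panel and Cd68, Laptm5 and Man2b1 in the right one, and Atp6v0a1 lies left of 0 in the left panel only; Atp6v0d2 and Atp6v0c had too few UMIs to plot.

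The next comparison asks what repeated CCl4 did to these genes in each cell group. In Kupffer low cells 3 members rose and 2 fell among the 30 that passed the filter on low counts, against 11.2% of the 9117 genes tested in that gate (5.48% higher and 5.71% lower). The median log2 change of those 30 was 0.02, and over all genes tested it was -0.01. Filtered out were Atp6v0d2 and Atp6v0c. With cells limited to 15% mitochondrial UMIs, an alternative added after that share was seen to differ, 5 members passed again, the same 5 genes.

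Gla, the alpha-galactosidase that removes terminal galactose from glycolipids, rose most in Kupffer low cells. It stood at 20.4 and 26.4 CPM in corn oil and 85.0 and 76.3 in CCl4 (log2 1.73, SE 0.234, adjusted p = 0.004). Both CCl4 mice lay far above both corn oil mice, and the gene passed under all 12 alternatives. Gusb, the beta-glucuronidase of glycosaminoglycan breakdown, rose from 91.2 and 79.7 to 176 and 183 CPM (log2 1.00, SE 0.161, adjusted p = 0.00718), again without overlap and under all 12 alternatives. Man2b1 fell from 873 and 809 to 467 and 521 CPM (log2 -0.84, SE 0.152, adjusted p = 0.0113), so glycosidases moved in opposite directions in the same cells. Its call was lost without CCl4 1. The other 4 glycosidases (Hexa, Naglu, Gaa and Neu1) did not pass, with log2 changes from -0.30 to 0.48.

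Of the membrane proteins, Laptm5 fell from 2013 and 1822 to 1045 and 1264 CPM (log2 -0.80, SE 0.163, adjusted p = 0.0172), and the corn oil mice lay above the CCl4 mice; the call was lost without CCl4 1 and in gates set on thinned cells. Scarb2 stood at 441 and 405 CPM in corn oil and 299 and 373 in CCl4 (log2 -0.40, adjusted p = 0.132), with no overlap but no call. Lamp1 stood at 1193 and 1204 CPM in corn oil and 1052 and 1195 in CCl4, with the mice of both groups interleaved. Cd68 (0.11) and Lamp2 (-0.02) did not pass either.

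No gene of lipid handling passed in Kupffer low cells. Lipa, the acid lipase that frees cholesterol and fatty acids, had its highest level in CCl4 2, at 831 and 948 CPM in corn oil and 998 and 1534 in CCl4 (log2 0.43, adjusted p = 0.2). Asah1 stood at 463 and 444 CPM in corn oil and 366 and 390.0 in CCl4. Npc2 stood at 789 and 843 CPM in corn oil and 680.2 and 775 in CCl4. Asah1 and Npc2 were lower in each CCl4 mouse without passing. Psap, the precursor of the saposins that help hydrolases reach their lipids, stood at 3079 and 2989 CPM in corn oil and 2941 and 3413 in CCl4 and overlapped, and Npc1 (0.09) and Ppt1 (0.03) did not pass. Grn stood at 2437 and 2455 CPM in corn oil and 2969 and 2997 in CCl4 (log2 0.22, adjusted p = 0.408) and Tpp1 at 473 and 378 CPM in corn oil and 426 and 436 in CCl4. For Grn both CCl4 mice lay above both corn oil mice without passing the test.

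None of the regulators passed in Kupffer low cells. Tfe3 stood at 90.7 and 79.2 CPM in corn oil and 66.1 and 74.9 in CCl4 (log2 -0.34, adjusted p = 0.24). Mitf stood at 52.2 and 62.3 CPM in corn oil and 52.0 and 34.5 in CCl4 (log2 -0.46, adjusted p = 0.273), and for both factors no CCl4 mouse exceeded a corn oil mouse. Tfeb stood at 16.8 and 26.4 CPM in corn oil and 17.1 and 21.2 in CCl4 and its groups overlapped. Mcoln1 stood at 28.6 and 32.6 CPM in corn oil and 34.9 and 33.8 in CCl4, slightly higher in each CCl4 mouse (log2 0.11, adjusted p = 0.817).

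In the proton pump Atp6v0a1 rose from 40.8 and 37.6 to 64.8 and 73.6 CPM (log2 0.75, SE 0.197, adjusted p = 0.041). Its groups did not overlap, but the call was the weakest of the 5. It was lost by DESeq2, in purer gates, in gates set on thinned cells and without corn oil 2, CCl4 1 or CCl4 2, while the log2 change stayed between 0.63 and 0.82 in those alternatives. Atp6v1h stood at 66.2 and 61.2 CPM in corn oil and 96.0 and 92.2 in CCl4 (log2 0.50, adjusted p = 0.0913) and Atp6v0d1 at 59.4 and 44.4 CPM in corn oil and 72.8 and 90.9 in CCl4 (log2 0.58, adjusted p = 0.093), both higher in each CCl4 mouse without passing. Atp6v1b2 (0.43), Atp6v1a (0.24) and Atp6ap1 (-0.06) did not pass. The median over the 6 pump members that passed the filter was 0.46. Of 15 further subunits listed beside them, 10 passed the filter, 2 rose and none fell. They were Atp6v1c1, from 61.7 and 64.6 to 108 and 119 CPM (log2 0.78, adjusted p = 0.0218), and Atp6v1g1, from 178 and 210.0 to 298 and 324 CPM (log2 0.61, adjusted p = 0.0461), both of the cytosolic part of the pump.

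When Kupffer low and high cells were pooled, an alternative added after the high range was seen to be nearly empty in corn oil, 7 members passed, where 15.3% of 9918 genes did (7.55% higher and 7.79% lower). Gla (log2 1.97), Gusb (1.32), Atp6v0a1 (1.42) and Atp6v1b2 (0.56) rose, and Man2b1 (-0.93), Laptm5 (-0.71) and Scarb2 (-0.62) fell. The joined cells of the CCl4 mice hold many cells of the high range and those of the corn oil mice nearly none.

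In endothelial cells 1 member rose and 2 fell of 32, which all passed the filter, against 5.42% of 13388 genes (2.85% higher and 2.57% lower). Scarb2 fell from 708 and 725 to 340.1 and 331 CPM (log2 -1.15, SE 0.126, adjusted p = 0.0068), and passed under all 11 alternatives. Man2b1 fell from 296 and 290.4 to 161 and 135 CPM (log2 -1.05, SE 0.15, adjusted p = 0.0161), and Gla rose from 23.2 and 26.8 to 66.4 and 53.4 CPM (log2 1.20, SE 0.179, adjusted p = 0.0183). For each of these genes the mice of the groups lay well apart. The call of Gla was lost without CCl4 1 (log2 0.98, adjusted p = 0.0914) and that of Man2b1 without CCl4 2 (log2 -0.89, adjusted p = 0.0638). In these cells the 12 Kupffer markers stood at 0.121% to 9.12% of their Kupffer low level. Those of the complement genes C1qa, C1qb and C1qc were higher in CCl4 (1.97% to 4.93%) than in corn oil (0.825% to 1.93%). Slc40a1 was lower, at 5.10% and 3.76% in CCl4 against 8.02% and 9.12% in corn oil, as were Cd163 and Timd4. The rest overlapped between treatments, and the part of macrophage RNA in the rise of Gla was not tested.

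The remaining endothelial members changed less. Lamp2 stood at 1207 and 1237 CPM in corn oil and 903 and 892 in CCl4 (log2 -0.50, adjusted p = 0.07) and Lamp1 at 680.4 and 692 CPM in corn oil and 571 and 598 in CCl4, both lower in each CCl4 mouse but not called. Hexa stood at 147 and 135 CPM in corn oil and 111 and 124 in CCl4, and Ppt1 at 74.1 and 72.4 CPM in corn oil and 53.6 and 59.7 in CCl4 (log2 -0.43, adjusted p = 0.0984), again without overlap or a call. Lipa stood at 371 and 384 CPM in corn oil and 454 and 436 in CCl4 and Asah1 at 139 and 121 CPM in corn oil and 118 and 119.9 in CCl4. The former was higher and the latter narrowly lower in both CCl4 mice.

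Among the regulators of endothelial cells Tfeb stood at 9.58 and 12.8 CPM in corn oil and 9.43 and 12.6 in CCl4, Tfe3 at 54.6 and 53.0 CPM in corn oil and 53.2 and 55.2 in CCl4 and Mitf at 5.27 and 6.65 CPM in corn oil and 6.42 and 5.50 in CCl4, each overlapping between treatments. Mcoln1 stood at 31.5 and 35.0 CPM in corn oil and 30.6 and 33.3 in CCl4, Tpp1 at 467 and 467 CPM in corn oil and 416 and 467 in CCl4 and Grn at 407 and 449.6 CPM in corn oil and 402 and 391 in CCl4. The log2 changes of these 6 genes ran from -0.17 to -0.05, and none passed. Of them Grn alone did not overlap, which is a description and not a call. In the pump Atp6v1b2 stood at 91.7 and 90.6 CPM in corn oil and 131 and 118 in CCl4 (log2 0.39, adjusted p = 0.143), Atp6v0d1 at 47.3 and 37.7 CPM in corn oil and 57.7 and 59.1 in CCl4 and Atp6v0a1 at 106 and 122 CPM in corn oil and 98.95 and 92.2 in CCl4 (log2 -0.31, adjusted p = 0.25). Atp6v1b2 and Atp6v0d1 were higher and Atp6v0a1 lower in both CCl4 mice, and none passed. No gene of the 15 further pump subunits passed in endothelial cells. The other members (Cd68, Laptm5, Naglu, Neu1, Gaa, Gusb, Psap, Npc1, Npc2, Atp6v1h, Atp6v1a, Atp6v0c, Atp6v0d2 and Atp6ap1) had log2 changes from -0.33 to 0.83.

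In stellate cells 1 member of the 30 that passed the filter (without Atp6v0d2 and Atp6v0c) fell and none rose, against 10.2% of 8978 genes (5.29% higher and 4.91% lower). It was again Scarb2, from 967 and 1013 to 571 and 530.4 CPM (log2 -0.89, SE 0.178, adjusted p = 0.0161), without overlap, and the call was lost without either CCl4 mouse. Cd68 stood at 71.0 and 27.9 CPM in corn oil and 110.2 and 110.5 in CCl4 (log2 1.09, adjusted p = 0.0645), a macrophage gene in a gate where the summed Kupffer markers were also higher in CCl4; the part of macrophage RNA was not tested. Lamp2 stood at 704 and 865 CPM in corn oil and 1029.8 and 1186 in CCl4 (log2 0.45, adjusted p = 0.204). Unlike in endothelial cells, its CCl4 values lay above those of corn oil.

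Stellate glycosidases and lipid genes did not pass. Gaa stood at 80.1 and 51.3 CPM in corn oil and 48.0 and 40.9 in CCl4, Naglu at 76.7 and 63.1 CPM in corn oil and 56.6 and 45.0 in CCl4 and Gusb at 44.6 and 23.5 CPM in corn oil and 47.7 and 52.4 in CCl4. For Gaa and Naglu each CCl4 mouse lay below both corn oil mice, and for Gusb each lay above. Ppt1 stood at 109.9 and 96.8 CPM in corn oil and 75.6 and 94.1 in CCl4, Npc2 at 192 and 236 CPM in corn oil and 238 and 315 in CCl4 and Npc1 at 52.6 and 48.4 CPM in corn oil and 57.6 and 72.0 in CCl4. Ppt1 was lower in each CCl4 mouse, while Npc2 and Npc1 were higher in each. Tpp1 stood at 201 and 216 CPM in corn oil and 157 and 159 in CCl4, Grn at 458 and 456 CPM in corn oil and 459 and 438 in CCl4 and Mcoln1 at 16.0 and 24.9 CPM in corn oil and 16.2 and 17.2 in CCl4. Only the values of Tpp1 did not overlap, and it did not pass. Tfeb at 9.16 and 20.5 CPM in corn oil and 7.36 and 12.3 in CCl4, Mitf at 3.43 and 10.3 CPM in corn oil and 10.4 and 12.3 in CCl4 and Tfe3 at 17.2 and 32.3 CPM in corn oil and 24.9 and 31.9 in CCl4 rest on few UMIs in the corn oil cells. In the pump Atp6v0a1 stood at 26.3 and 19.1 CPM in corn oil and 42.4 and 51.6 in CCl4 (log2 0.97, adjusted p = 0.0678), Atp6v1b2 at 72.1 and 51.3 CPM in corn oil and 103 and 90.03 in CCl4 (log2 0.60, adjusted p = 0.126) and Atp6v1a at 89.3 and 52.8 CPM in corn oil and 94.9 and 75.3 in CCl4. All CCl4 values of Atp6v0a1 and Atp6v1b2 lay above those of corn oil. The other 12 members that passed the filter had log2 changes from -0.29 (Man2b1) to 0.53 (Gla).

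Cells of the monocyte gate gave 1 fall and no rise among 32 members, against 5.47% of 10191 genes (2.4% higher and 3.06% lower). Gaa fell from 80.7 and 101 to 30.2 and 31.1 CPM (log2 -1.60, SE 0.225, adjusted p = 0.0203), and the call was lost without either CCl4 mouse. Naglu, a glycosidase of heparan sulphate breakdown, stood at 62.9 and 81.2 CPM in corn oil and 29.1 and 33.9 in CCl4 (log2 -1.22, adjusted p = 0.0517). Gusb stood at 202 and 205 CPM in corn oil and 143 and 162 in CCl4 (log2 -0.48, adjusted p = 0.18). For all 3 the corn oil cells, which carried more macrophage genes and few of which held Ly6c2, were higher. Kupffer markers summed to 0.635% and 0.936% of UMIs in the corn oil cells of this gate and to 0.152% and 0.195% in the CCl4 cells. Stellate markers summed to 0.838% in corn oil 1, 0.0634% in corn oil 2 and 0.115% and 0.0655% in the CCl4 libraries. The part of either set in these differences was not tested.

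Cd68 stood at 1360.4 and 1555 CPM in corn oil and 987 and 1020.4 in CCl4, Scarb2 at 326 and 244 CPM in corn oil and 197 and 186 in CCl4 and Laptm5 at 1364 and 2813 CPM in corn oil and 1500.2 and 1662 in CCl4 in the monocyte gate. Cd68 and Scarb2 were lower in each CCl4 mouse. Ppt1 stood at 96.8 and 73.5 CPM in corn oil and 132 and 141 in CCl4, Lipa at 747 and 1083 CPM in corn oil and 582 and 709 in CCl4 and Psap at 6245 and 5157 CPM in corn oil and 7585 and 6774 in CCl4, where Ppt1 and Psap were higher and Lipa lower in both CCl4 mice. Tpp1 stood at 311 and 375 CPM in corn oil and 251 and 259 in CCl4, Grn at 1369 and 2221 CPM in corn oil and 1479.8 and 1516 in CCl4 and Mcoln1 at 22.6 and 38.7 CPM in corn oil and 33.7 and 27.8 in CCl4. Of these only Tpp1 did not overlap, and it did not pass. Tfeb stood at 17.8 and 19.3 CPM in corn oil and 37.0 and 34.3 in CCl4 (log2 0.89, adjusted p = 0.144), Tfe3 at 46.8 and 50.3 CPM in corn oil and 78.0 and 80.4 in CCl4 (log2 0.65, adjusted p = 0.144) and Mitf at 37.1 and 85.1 CPM in corn oil and 76.7 and 71.1 in CCl4. Tfeb and Tfe3 were higher in both CCl4 mice and did not pass. Atp6v1b2 stood at 287 and 340.4 CPM in corn oil and 505 and 468 in CCl4, Atp6v0a1 at 119 and 73.5 CPM in corn oil and 57.3 and 71.4 in CCl4 and Atp6v0d2 at 416 and 0 CPM in corn oil and 24.0 and 16.3 in CCl4. The other 14 members had log2 changes from -0.52 (Gla) to 0.91 (Atp6v0c, with 1 to 62 UMIs per library). The high value of Atp6v0d2 came from 9 of the 43 corn oil 1 cells, 1 of which held 42.2% of its UMIs.

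**Figure D3:**
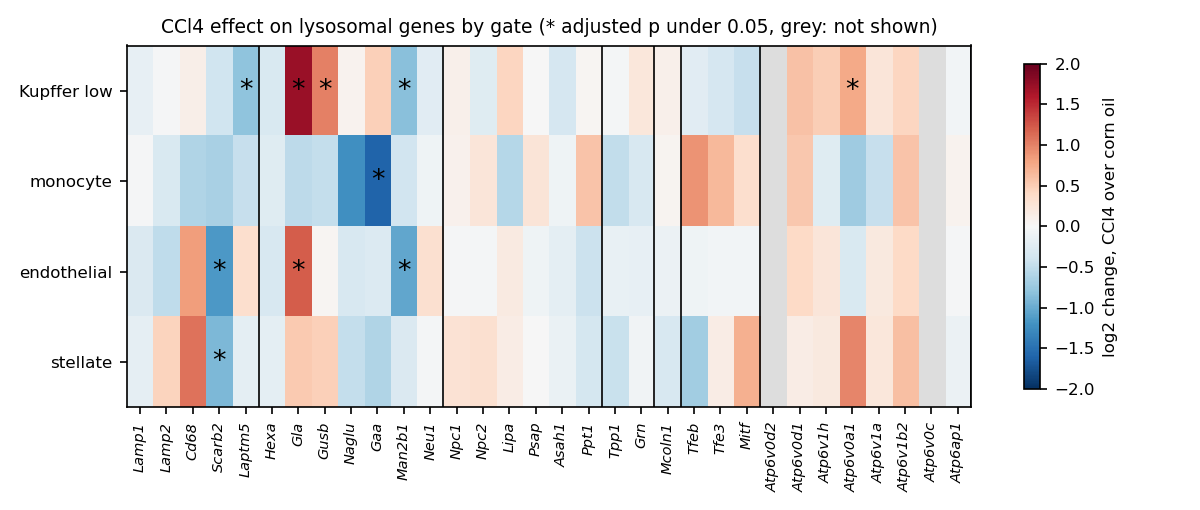
Log2 change of CCl4 over corn oil (colour) for each member (columns, by role) in the 4 gates tested (rows); asterisks mark members that passed the test. Gla is red in Kupffer low and endothelial cells, Scarb2 is blue in all rows, and Atp6v0d2 and Atp6v0c are grey because their counts were too low to show.

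**Figure D4:**
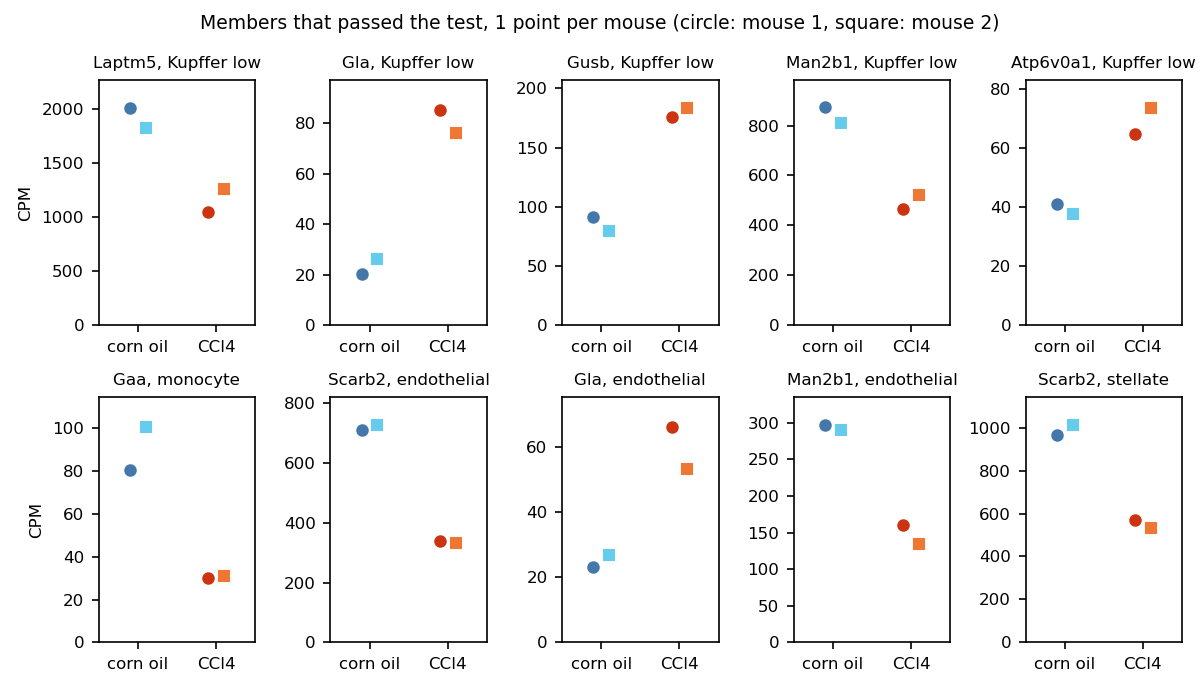
Level (CPM of the gate, y axis from 0) of each member that passed the test of CCl4 against corn oil, 1 point per mouse. In all 10 panels both CCl4 points lie on one side of both corn oil points, as with Gla in Kupffer low cells. The panels were picked by the test on these same values, so this adds no evidence.

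Whether the effect of CCl4 differed between cell groups was tested as an interaction in the joint fit. Between Kupffer low and endothelial cells 3 members passed, where 2.74% of 11649 genes did (1.2% higher and 1.54% lower). Gusb had a log2 change of 1.00 in Kupffer low and 0.04 in endothelial cells, and the difference was 1.02 (adjusted p = 0.0183). Atp6v0a1 went up in the former and had a change of -0.31 in the latter (difference 1.13, adjusted p = 0.035). Scarb2 fell in endothelial cells and had a change of -0.40 in Kupffer low cells (difference 0.82, adjusted p = 0.0485). For Gla, which rose in both groups, the difference of 0.60 did not pass (adjusted p = 0.226), nor did that of Man2b1 (0.28, adjusted p = 0.663), which fell in both. Between stellate and endothelial cells Lamp2 differed (log2 1.03, adjusted p = 0.0258), where 1.38% of genes did (0.661% higher and 0.721% lower); Atp6v0a1 came next (log2 1.35, adjusted p = 0.0522). Between Kupffer low and stellate cells edgeR called 0 members, 7 had an unadjusted p under 0.05 and DESeq2 called 3, where 1.41% of genes passed by edgeR. Without the mouse term, and without either CCl4 mouse, all 4 of these interaction calls were lost. Scarb2 and Lamp2 were also lost without corn oil 1, Scarb2 and Atp6v0a1 without corn oil 2 and in gates set on thinned cells, Atp6v0a1 in purer gates, and Scarb2 with RLE factors and at a limit of 15% mitochondrial UMIs.

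Within the CCl4 mice, Kupffer cells high in the scar-associated genes were compared with those low in them, again with mouse as a block. Of 32 members 3 were higher and none lower, where 3.31% of genes passed (2.2% higher and 1.11% lower). Atp6v0a1 stood at 153 and 151 CPM in the high and 64.8 and 73.6 in the low cells of CCl4 1 and CCl4 2 (log2 1.15, SE 0.184, adjusted p = 0.00385). Gusb stood at 275 and 279 against 176 and 183 CPM (log2 0.63, SE 0.14, adjusted p = 0.0247), and Psap at 4717 and 4634 against 2941 and 3413 CPM (log2 0.57, SE 0.141, adjusted p = 0.0428). In each of the 3 genes both high values exceeded both low ones. Atp6v0a1 and Gusb are also members that rose in Kupffer low cells after CCl4, but the low cells enter both comparisons and the values are not independent. Without either CCl4 mouse none of the 3 passed. Without the mouse term, in gates set on thinned cells and at the 15% mitochondrial limit, 1 of them did, Atp6v0a1.

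The rise in Atp6v0a1 lay mostly at 10 or more UMIs of the scar-associated genes in CCl4 1 and was more gradual in CCl4 2. In CCl4 1 the level was 64.9 CPM in Kupffer cells with 0 such UMIs, 64.7 with 1 to 3, 79.5 with 4 to 9 and 161.7 with 10 or more; in CCl4 2 it was 71.0, 83.6, 107.6 and 158.3. The middle bins held 16 to 22 cells each and the outer ones 85 to 103. Median depth was 6402 and 11980 UMIs in the 4 to 9 bin and 12770 and 14715 in the last. In the bin with 0 such UMIs it was 15994 and 14414. The part of depth in these levels was not tested. Scarb2 had its lowest level in the last bin, at 229 and 231 CPM, and did not differ between high and low cells by the test (log2 -0.47, adjusted p = 0.118). At the threshold itself, cells with 3 and with 4 such UMIs gave the 32 members 1.54% and 1.41% of UMIs in CCl4 1 (3 and 5 cells) and 1.79% and 1.72% in CCl4 2 (6 and 2 cells).

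Atp6v0d2, the subunit isoform known from osteoclasts and macrophages, was almost absent from Kupffer low cells and present in Kupffer high cells. It was tested between these cells in the joint fit and was not among the 3 members that passed. In the high cells its UMIs lay in 24 cells of CCl4 1 and 18 of CCl4 2, and the interval below takes UMIs as independent. The high cells of the CCl4 mice held it at 53.6 and 40.9 CPM and the low cells at 1.22 and 0.663, from 148 and 3 UMIs (ratio of CPM 49.1, exact 95% interval 16.5 to 241, counting error only). A UMI was found in 19.7% and 15.3% of high cells and in 1.89% and 0.935% of low cells, at median depths of 12292.5 and 14506 against 15787 and 14622 UMIs. In endothelial cells the share was 1.59% and 0.644% at median depths of 6778 and 6148 UMIs. These UMIs were unevenly spread, with 29.8% and 21.9% of them in 1 cell, so the gate is no clean background. It held Atp6v0d2 at 16.3 and 3.79 CPM, above the low cells. With cells thinned to 2000 UMIs the shares were 6.56% and 4.24% of high cells, 0.681% and 0.143% of endothelial cells and 0 of 106 and 0 of 107 low cells, which allows up to 3.42% and 3.39% (exact 95% limits). Its relative Atp6v0d1, which fills the same place in the pump in most tissues, stood at 65.6 and 80.0 against 72.8 and 90.9 CPM.

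**Figure D5:**
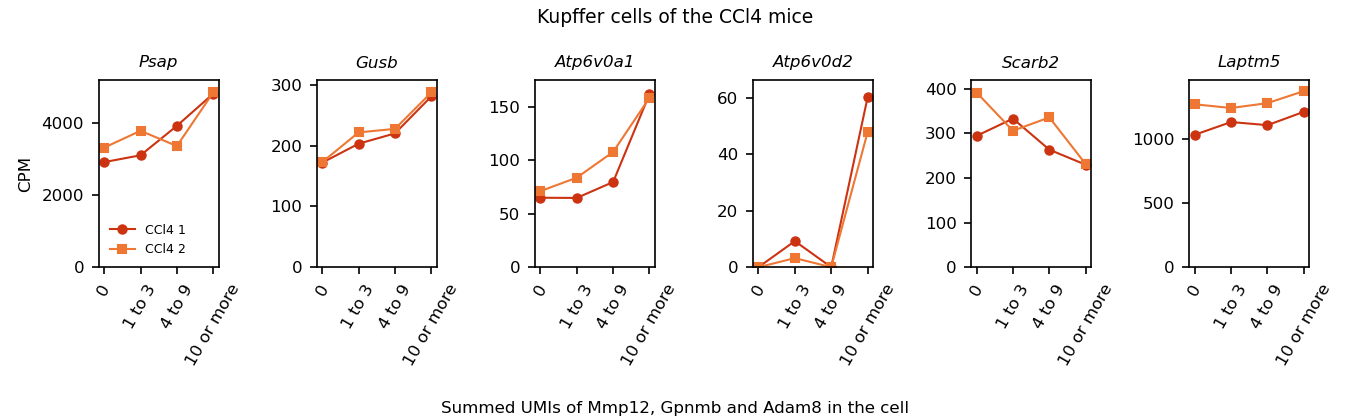
Level (CPM, y axis from 0) of 6 members in Kupffer cells of the CCl4 mice, binned by the summed UMIs of Mmp12, Gpnmb and Adam8 per cell (x axis), 1 line per mouse. Atp6v0a1 reaches 161.7 and 158.3 and Atp6v0d2 60.2 and 47.8 in the last bin, where Scarb2 is lowest.

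Cells of the monocyte gate were set against Kupffer low cells in the CCl4 mice, where Ly6c2 and Ccr2 were frequent in them. Of 32 members 4 were higher and 7 lower, where 35.2% of genes passed. Psap was higher, at 7585 and 6774 against 2941 and 3413 CPM (log2 1.16, SE 0.142, adjusted p = 3e-05), as were Npc2 (log2 0.57, adjusted p = 0.00311) and the factors Tfeb (log2 0.88, adjusted p = 0.00894) and Mitf (log2 0.76, adjusted p = 0.00892). Lower were Grn, at 1479.8 and 1516 against 2969 and 2997 CPM (log2 -1.01, adjusted p = 0.000187), Lipa, at 582 and 709 against 998 and 1534 CPM (log2 -0.98, adjusted p = 0.000383), Tpp1 (-0.78), Scarb2 (-0.83), and the glycosidases Gaa (-0.92), Naglu (-0.82) and Man2b1 (-0.75). No pump member passed. Without CCl4 1 only 3 members passed and without CCl4 2 only 1.

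The lists of other lysosomal genes give the setting. In Kupffer low cells the mannose 6-phosphate sorting list, which brings new hydrolases to the lysosome, had 2 rises and no fall among 13 of 14 genes that passed the filter (median log2 0.23), where 11.2% of all genes tested in that gate passed. They were the 2 mannose 6-phosphate receptors, M6pr, from 269.5 and 273 to 428 and 435 CPM (log2 0.60, adjusted p = 0.0339), and Igf2r, from 34.5 and 29.2 to 71.6 and 51.7 (log2 0.89, adjusted p = 0.0457). Among 29 of 32 other hydrolases that passed the filter, Hgsnat, of heparan sulphate breakdown, rose from 164 and 165 to 286 and 312 CPM (log2 0.79, adjusted p = 0.0141), and Ids fell (log2 -1.004, adjusted p = 0.0214). Proteases gave 1 rise (Ctsz, 0.71) and 1 fall (Ctsf, -0.98) among 14 of 18, and membrane transporters 1 rise (Slc15a3, 0.67) among 27 of 28.

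The autophagy list gave 3 falls and no rise in Kupffer low cells, with all 25 genes past the filter, near the 11.2% of all genes, and a median log2 change of -0.35 against -0.01 over all genes. Map1lc3a, an LC3 protein of the autophagosome membrane, fell from 74.9 and 88.7 to 24.5 and 27.9 CPM (log2 -1.71, adjusted p = 0.00379). Ulk1, a kinase that starts autophagy, fell from 48.1 and 40.4 to 15.3 and 15.3 CPM (log2 -1.60, adjusted p = 0.00718), and Rb1cc1, its partner, fell as well (log2 -0.65, adjusted p = 0.0434). No gene passed among 19 of 21 genes of TFEB regulation and mTORC1 (median 0.13) or among 24 of 26 genes of late endosome tethering and fusion (median -0.01).

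In endothelial cells the cathepsin list gave 2 rises and 2 falls among 17 of 18 genes, where 5.42% of all genes passed. Ctsb, a broad protease, rose from 1470.3 and 1718 to 4145 and 4369.8 CPM (log2 1.36, adjusted p = 0.00655) and Lgmn from 293 and 235 to 584 and 524 (log2 1.01, adjusted p = 0.0225), and Ctsf (-1.11) and Ctsw (-2.35) fell. Of 28 membrane transporters and other membrane proteins Cd63, a tetraspanin of late endosomes, rose from 33.0 and 47.0 to 244 and 211 CPM (log2 2.45, adjusted p = 0.00343), Litaf (1.60) and Laptm4b (0.94) rose, and Tpcn1 fell (-0.76). One hydrolase of 32, Arsb, fell (-1.29). No gene passed in the other 5 lists.

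Stellate cells gave 2 protease rises among 15 of 18, where 10.2% of all genes passed, Ctsk, from 35.5 and 29.3 to 86.3 and 130.1 CPM (log2 1.66, adjusted p = 0.00736), and Ctsb (log2 0.80, adjusted p = 0.0272). Among 23 of 28 membrane genes Slc15a3 (1.54), Cd63 (1.19) and Litaf (1.12) rose and Tpcn1 (-1.45) and Lmbrd1 (-0.74) fell. Naaa fell (-1.67) among 27 of 32 hydrolases, Rragd, a Rag GTPase that signals to mTORC1, fell (-1.30) among 19 of 21 regulators, and the autophagy receptors Sqstm1 (-0.75) and Calcoco1 (-1.02) fell among 25. In the monocyte gate Napsa (3.51), Ctsc (1.27) and Acp5 (2.04) rose, and Ctsd (-1.98), Glb1 (-2.53), Arsb (-2.29), Smpd1 (-1.52) and Sort1 (-1.97) fell, with the same reservation on its corn oil cells.

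Between Kupffer high and low cells of the CCl4 mice, Cd63 stood at 558 and 458 against 20.8 and 23.2 CPM (log2 4.54, adjusted p = 4.23e-06), the largest difference among the listed genes that passed. The hydrolase helpers and hydrolases Gm2a (0.97) and Pld3 (0.65) and the sorting adaptor Gga2 (1.06) were higher, and Naaa (-0.93), Sidt2 (-0.79) and Laptm4a (-0.59) were lower. None of the further pump subunits, proteases, regulators, autophagy or fusion genes passed in this comparison.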

How the data were processed

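The deposited tables hold counts of UMIs, whole numbers corrected for errors in the molecular tags, made by the authors with the BD WTA Rhapsody Analysis Pipeline 1.9.1 on GRCm38 with GENCODE vM19, per the file headers. No source used here names the aligner. Kept cells had 200 or more genes and no more than 25% mitochondrial UMIs, and were gated by UMIs: Clec4f of 5 or more (Kupffer), Chil3, F13a1 and Vcan of 3 or more with Clec4f of at most 2 (monocyte), Kdr, Ptprb and Egfl7 of 5 or more (endothelial), and Reln, Colec11 and Lrat of 5 or more (stellate). Cells in 2 lineages were dropped (283 to 883 per library), and no doublet caller was run. UMIs were summed per gate and library where it held at least 20 cells. Sums were tested in edgeR 4.0.16 (R 4.3.3) with TMM, filterByExpr and the quasi-likelihood test, per gate, and for contrasts between gates and interactions in 1 fit with mouse as a block. TMM moved log2 changes by -0.06 to -0.04 against plain CPM. Scripts were tested on simulated data. Alternatives were DESeq2 1.42.0, RLE factors, no filter, each library left out, a replicate block or none, gates without cells of 2 or more UMIs of other lineages' gate genes ("purer"), gates on cells thinned to 2000 UMIs, and a 15% mitochondrial limit (for the tests added after seeing the data). Members were named with their values if called or among the 3 lowest p of their role in a gate, other listed genes up to 3 each way, and contrasts between gates by the largest difference per role. The members and lists were chosen with earlier results of these data known. The result of 1 listed hydrolase is not reported here. Promoter windows and motif counts used the RefSeq table. P-values of the tests per gate rest on the spread between 2 mice per group, with the estimate shared in part across genes. Those of contrasts between gates and of interactions rest on the spread left in the joint fit after the mouse term. That spread is shared over all gates.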

Additional observations from a re-analysis of the deposited data

Results flagged for a closer look

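Results are listed here because the effect of CCl4 differed between cell groups by the interaction test of edgeR's joint fit. For Gusb the change in Kupffer low cells exceeded that in endothelial cells by 1.02 on the log2 scale (adjusted p = 0.0183), and for Atp6v0a1 by 1.13 (adjusted p = 0.035). Scarb2 differed by 0.82 between the same cells (adjusted p = 0.0485), with a fall in endothelial cells and a change of -0.40 in Kupffer low cells that did not pass. Lamp2 differed by 1.03 between stellate and endothelial cells (adjusted p = 0.0258). Each difference kept its direction in all 11 alternatives, between 0.60 and 1.28 for the first 3 genes and between 0.87 and 1.17 for Lamp2, while adjusted p rose to between 0.495 and 0.680 in the least favourable one.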

How the results depend on the processing

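No result reversed its direction in any alternative run. Gla and Gusb in Kupffer low cells (log2 1.52 to 2.31 and 0.90 to 1.32) and Scarb2 in endothelial cells (-1.23 to -1.10) passed under every one. Counts of members called moved as follows. DESeq2 gave 4 in the monocyte gate in place of 1, and 3 in place of 0 and of 1 for the interactions of Kupffer low with stellate and of stellate with endothelial cells; RLE factors gave 2 in the monocyte gate. Without a filter the counts were 4 (monocyte), 5 (endothelial), 4 (stellate), 5 (Kupffer high against low), and 5, 1 and 2 for the interactions of Kupffer low with endothelial, Kupffer low with stellate and stellate with endothelial cells. Purer gates gave 2 in stellate cells, 5 for Kupffer high against low and 1 for Kupffer low with stellate. Thinned gates gave 3 in Kupffer low cells, 1 for Kupffer high against low and 1 for the interaction of Kupffer low with endothelial cells. The 15% mitochondrial limit gave 1 for Kupffer high against low. In the monocyte gate purer and thinned gates were not run, since 1 or both corn oil libraries held under 20 cells.

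Leaving out 1 library gave 2 to 7 calls in Kupffer low, 0 to 7 in the monocyte gate, 2 to 4 in endothelial and 0 to 3 in stellate cells, 23 to 24 for Kupffer low against endothelial, 21 to 23 against stellate, 9 to 12 for stellate against endothelial, 1 to 16 for monocyte against Kupffer low, 0 to 4 for Kupffer high against low, and 0 to 3, 0 to 1 and 0 to 2 for the interactions. A lone remaining mouse is then assumed to vary like the others. In the comparison of Kupffer low cells without CCl4 1, 2 members passed, Gla and Gusb.

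Replicate numbers name different mice, and deviations of same-numbered mice correlated at 0.10, 0.17, 0.08 and -0.00243 in Kupffer low, monocyte, endothelial and stellate sums, so they share only a number. With the replicate block 5, 1, 5 and 2 members passed in these gates. With no replicate block (mouse term dropped) 1 passed for Kupffer high against low, and 0 for the interactions of Kupffer low and of stellate with endothelial cells.

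The members' mean share of UMIs in corn oil Kupffer low cells moved from 1.67% to 1.58% in thinned gates and 1.73% at the 15% limit. In corn oil cells of the monocyte gate it moved from 1.88% to 2.20% in thinned gates. Depth limits Atp6v0d2 and Atp6v0c most, with 0 to 3 UMIs in some gates.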

Other observations

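Atp6v0d2 was concentrated in few cells, many of them in no gate, a pattern looked at after its values were seen. Cells with 5 or more of its UMIs numbered 20 and 31 in the corn oil libraries and 115 and 69 in the CCl4 libraries, or 0.292%, 0.428%, 1.87% and 1.23% of kept cells. They held 95.2%, 88.7%, 86.2% and 83.6% of all Atp6v0d2 UMIs of their library. None of these was a Kupffer low cell. Of these cells 8, 16, 69 and 54 fell into no gate and 2, 10, 18 and 5 into the endothelial gate. They were deep, with a median of 17664.5, 21080, 15903 and 14655 UMIs, and a cut on UMIs favours deep cells.

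These cells were rich in genes of scar-associated macrophages. Gpnmb stood at 4556 and 3333 CPM in corn oil and 4426 and 4719.6 in CCl4, with a UMI in 95% to 100% of them, and Cd68 at 2411 and 2514 against 2356 and 2530. Psap stood at 11985 and 10668 against 10297 and 10142 CPM, above its level in every gate tested. Most lacked Clec4f, which had a UMI in 25%, 16.1%, 18.3% and 14.5%, while C1qa had one in 80.0%, 93.5%, 96.5% and 98.6%. Atp6v0a1 stood at 156 and 199 CPM in corn oil and 181 and 259 in CCl4, against 37.6 to 73.6 in Kupffer low cells. In Kupffer high cells of the CCl4 mice it stood at 153 and 151 CPM, nearer to these values. Endothelial RNA was also present, with Kdr in 50.0%, 61.3%, 37.4% and 11.6% of the cells, and its part in these values was not tested. Since the cells were selected by their own counts, the numbers are descriptions without a test.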
